A study of Homo sapiens with 20 samples.

Results

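The cGAS-STING pathway of DNA sensing and the genes around it were followed through RNA-seq of lung cancer cells with and without *ADAR* knockout (KO). The genes were 6 of the 58233 Ensembl identifiers counted: *MB21D1* (cGAS, named *CGAS* in newer tables), *TMEM173* (STING, named *STING1* in newer tables), *IFI16*, *AIM2*, *TREX1* and *SAMHD1*. They were chosen by symbol, and each symbol matched 1 identifier. Reads were counted for 5 of the 6, and *TREX1* was at 0 reads in each of the 20 libraries.

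The libraries came from 4 established human cell lines, each transduced with a lentivirus that carries Cas9 and an sgRNA against *GFP* (control) or against *ADAR*, the gene of the RNA-editing enzyme ADAR1. A549 and NCI-H1650 are labelled lung adenocarcinoma, HCC366 is labelled lung adenosquamous carcinoma, and NCI-H196 is labelled variant small cell lung cancer. HCC366, NCI-H1650 and NCI-H196 are the lines that the study calls ADAR1-dependent, and A549 is its line that tolerates *ADAR* loss. Each target had 2 sgRNAs and each sgRNA gave 1 library per condition, so the 10 conditions have 2 libraries each. Every library, the controls included, therefore came from cells given Cas9 and an sgRNA by lentivirus. A549 cells with either target were given vehicle, which was sterile water, or IFN-β at 10 ng/mL for 24 h. The cells of the other 3 lines were untreated and were collected some days after transduction. Since a condition's 2 libraries carry different sgRNAs and no repeat of the experiment is labelled, the p values below measure the spread between sgRNAs. The study's methods describe no isolation of single clones before RNA was taken.

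cGAS binds double-stranded DNA in the cytosol and makes the second messenger cGAMP, which activates STING on the endoplasmic reticulum. STING then recruits the kinase TBK1 or its relative IKKε, which phosphorylate IRF3 and so switch on *IFNB1* and interferon-stimulated genes. IFI16 and AIM2 are DNA-binding proteins of the PYHIN family, of which AIM2 builds an inflammasome with ASC and caspase-1. TREX1 degrades cytosolic DNA and SAMHD1 hydrolyses deoxynucleotides, and inherited loss of either can cause Aicardi-Goutières syndrome, as can inherited loss of ADAR1 function.

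In a GENCODE annotation mapped to GRCh37, *MB21D1* (ENSG00000164430) lies on the minus strand at chr6:74123238-74162020 and *TMEM173* (ENSG00000184584) on the minus strand at chr5:138855118-138862520. *IFI16* (ENSG00000163565) lies on the plus strand at chr1:158969758-159024945, and *AIM2* (ENSG00000163568) is close to it on the minus strand at chr1:159031389-159157633. *SAMHD1* (ENSG00000101347) lies on the minus strand at chr20:35518632-35580296, and *TREX1* (ENSG00000213689) on the plus strand at chr3:48507210-48509044. No exon base of *TMEM173* is shared with another gene. For *MB21D1*, *IFI16* and *SAMHD1*, between 4.31% and 9.86% of exon bases are shared, and only with genes on the opposite strand. *AIM2* shares 7.78% of its exon bases with a pseudogene on its own strand.

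*TREX1* could not be measured from these counts. All 1448 of its exon bases (100%) lie in exons of *ATRIP*, a DNA damage response gene on the same strand. *ATRIP* itself had between 0 and 12 reads per library. Reads that fell on more than 1 gene were set apart as ambiguous and made up 10.3% to 14% of the gene reads and ambiguous reads together. The 0 reads of *TREX1* are therefore given as a listing and not as a level, and no limit or fold was computed from them.

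RefSeq (GRCh38.p14) held promoter windows for 4 of the 6 genes, *TREX1*, *IFI16*, *AIM2* and *SAMHD1*, and not for *MB21D1* and *TMEM173*. Each window runs from 250 bases before to 50 bases after a gene start, and *IFI16* has 2 of them. The windows of *IFI16* and *SAMHD1* are printed because these were the members whose response to IFN-β held in every alternative that was run, and the window of *AIM2* because it was the only one of the 5 windows with a motif match. They were searched on both strands for the core of the interferon-stimulated response element, GAAANNGAAA. The sequences are given 5′ to 3′ on the gene's own strand, with capitals for a match.
IFI16 window 1, chr1:159008741-159009040, plus strand: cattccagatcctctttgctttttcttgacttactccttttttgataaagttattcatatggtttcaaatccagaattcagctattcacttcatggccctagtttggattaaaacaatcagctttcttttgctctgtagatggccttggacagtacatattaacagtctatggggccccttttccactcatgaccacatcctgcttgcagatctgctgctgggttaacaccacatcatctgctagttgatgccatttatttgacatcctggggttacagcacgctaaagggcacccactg
IFI16 window 2, chr1:159009657-159009956, plus strand: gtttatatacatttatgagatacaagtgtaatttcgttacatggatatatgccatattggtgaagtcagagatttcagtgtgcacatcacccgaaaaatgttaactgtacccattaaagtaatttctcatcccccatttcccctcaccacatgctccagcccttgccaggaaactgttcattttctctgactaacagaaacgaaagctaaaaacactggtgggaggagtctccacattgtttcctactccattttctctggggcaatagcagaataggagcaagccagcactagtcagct
SAMHD1, chr20:36951659-36951958, minus strand: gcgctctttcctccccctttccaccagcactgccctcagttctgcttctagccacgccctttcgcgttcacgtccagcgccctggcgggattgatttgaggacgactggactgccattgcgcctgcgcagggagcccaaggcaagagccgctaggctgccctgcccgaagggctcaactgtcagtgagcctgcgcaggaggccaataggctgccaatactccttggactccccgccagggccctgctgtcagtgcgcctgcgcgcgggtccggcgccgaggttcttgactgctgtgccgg
AIM2, chr1:159076717-159077016, minus strand: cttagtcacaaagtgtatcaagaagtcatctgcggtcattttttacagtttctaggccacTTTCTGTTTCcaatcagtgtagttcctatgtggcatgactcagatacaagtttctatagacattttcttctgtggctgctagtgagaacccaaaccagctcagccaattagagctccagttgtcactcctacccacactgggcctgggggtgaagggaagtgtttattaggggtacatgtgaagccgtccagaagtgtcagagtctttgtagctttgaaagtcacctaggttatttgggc
The *AIM2* window held 1 match to the response element core, TTTCTGTTTC on the printed strand, which starts at position -190 relative to the gene start. The windows of *IFI16*, *SAMHD1* and *TREX1* held no match to it. Of all 35116 windows of this length, 3.57% held the response element core. A window without a match says only that these letters are absent from it.

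Between 62679 and 19520189 reads fell on genes per library, with a median of 6411279. The shallowest library was NCI-H196 *GFP* sg2, where 1 read equals 15.95 CPM (the library-scaled read count). HCC366 *ADAR* sg2 had 85.6% of its alignments outside the unique class, against 22.5% to 59.1% elsewhere. Within every line and treatment, *ADAR* was lower in each *ADAR* library than in either *GFP* library. The log2 fold change lay between -0.41 in NCI-H196 and -1.29 in NCI-H1650, and it did not pass the test in HCC366 (-0.84, adjusted p = 0.208). The call in NCI-H196 was lost in 5 of 9 alternatives, among them DESeq2 (adjusted p = 0.999). Cas9 cuts need not remove reads, so this checks the labels only in part. Markers of the labelled tumor types were low: *NKX2-1* did not exceed 0.57 CPM in any library, and *NEUROD1* and *INSM1* were at 0 in NCI-H196. The squamous markers summed to between 1.43 and 4.89 CPM in HCC366. Some markers of types other than the labelled one were higher. In NCI-H1650, squamous *KRT6A* was at 57 to 69.2 CPM and neuroendocrine *CHGA* at 11.3 to 20.9 CPM. In NCI-H196, squamous *TP63* was at 13.7 to 41.8 CPM. Epithelial markers summed to between 41.8 and 63.6 CPM in NCI-H196, against at least 1630 CPM in the other lines. In A549 and HCC366 the sum came mainly from *KRT8* and *KRT18*. There *EPCAM* did not exceed 0.63 and 1.87 CPM, *KRT19* 1.66 and 0 CPM, and *CDH1* 61.2 and 9.91 CPM. The 6 leukocyte markers summed to at most 49 CPM, of which up to 47.9 CPM was *ITGAM* in HCC366, and *CD14* reached 8.09 CPM in NCI-H196. *PTPRC* did not exceed 2.43 CPM and *CD3E* was at 0.

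The basal levels of the pathway were compared first, in the 8 *GFP* libraries without IFN-β, to ask how the ADAR1-dependent lines differ from A549. *TMEM173* separated the lines most widely, being nearly undetected in A549 and plainly present in the other 3 lines. *IFI16*, *MB21D1* and *SAMHD1* were also lower in A549 than in each ADAR1-dependent line, by smaller factors. *AIM2* was low in every line. The levels in the next paragraphs are CPM scaled by trimmed mean of M values (TMM) over all 20 libraries, given for sg1 and then sg2.

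*TMEM173*, the STING adaptor, was at 0.32 and 0.083 CPM in A549, from 2 and 1 reads. It was at 40 and 38.8 CPM in HCC366, at 78.7 and 61.3 CPM in NCI-H1650, and at 46.6 and 52.3 CPM in NCI-H196, where the second value rests on 5 reads. No library of an ADAR1-dependent line came near A549. Relative to A549, HCC366 had a ratio of 239 (95% counting interval 80.6 to 1170), NCI-H1650 one of 429 (146 to 2080) and NCI-H196 one of 285 (96.9 to 1390). These intervals cover counting error only, and their width follows from the 3 reads in A549.

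*MB21D1*, which encodes the DNA sensor cGAS, was at 13.9 and 14.3 CPM in A549. It was at 41.5 and 32.9 CPM in HCC366, at 30.2 and 29.1 CPM in NCI-H1650, and at 46.3 and 20.9 CPM in NCI-H196, the last from 2 reads. A549 was thus the lowest line without overlap, whereas the other 3 lines lay close together. A549 therefore held reads of the sensor and hardly any of its adaptor.

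*IFI16*, a DNA-binding protein of the nucleus and cytosol, was at 4.15 and 3.65 CPM in A549. It was at 52.2 and 98.5 CPM in HCC366, at 24.4 and 38.3 CPM in NCI-H1650, and at 156 and 167 CPM in NCI-H196. The 4 lines did not overlap for this gene, and NCI-H196 was the highest.

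*SAMHD1* had the smallest fitted differences from A549 of the 4 members tested. It was at 32.6 and 47.5 CPM in A549, at 50.7 and 76.3 CPM in HCC366, at 45.9 and 62.6 CPM in NCI-H1650, and at 71.6 and 115 CPM in NCI-H196. A549 and NCI-H1650 overlapped, as did HCC366 with both NCI-H1650 and NCI-H196.

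*AIM2*, the inflammasome sensor, had 0 reads in both A549 libraries. It had 0 and 1 reads in HCC366, 9 and 8 in NCI-H1650, and 21 and 0 in NCI-H196, the last in the library of 62679 reads. The ratio to a floor of 3 reads over the A549 group was 10.5 in NCI-H1650 and 12.3 in NCI-H196, where all 21 reads came from sg1. With the counting error of both groups, the lower 95% limits of these ratios were 7.67 and 9.17. At these counts, no difference between A549 and HCC366 was detectable.

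**Figure D1:**
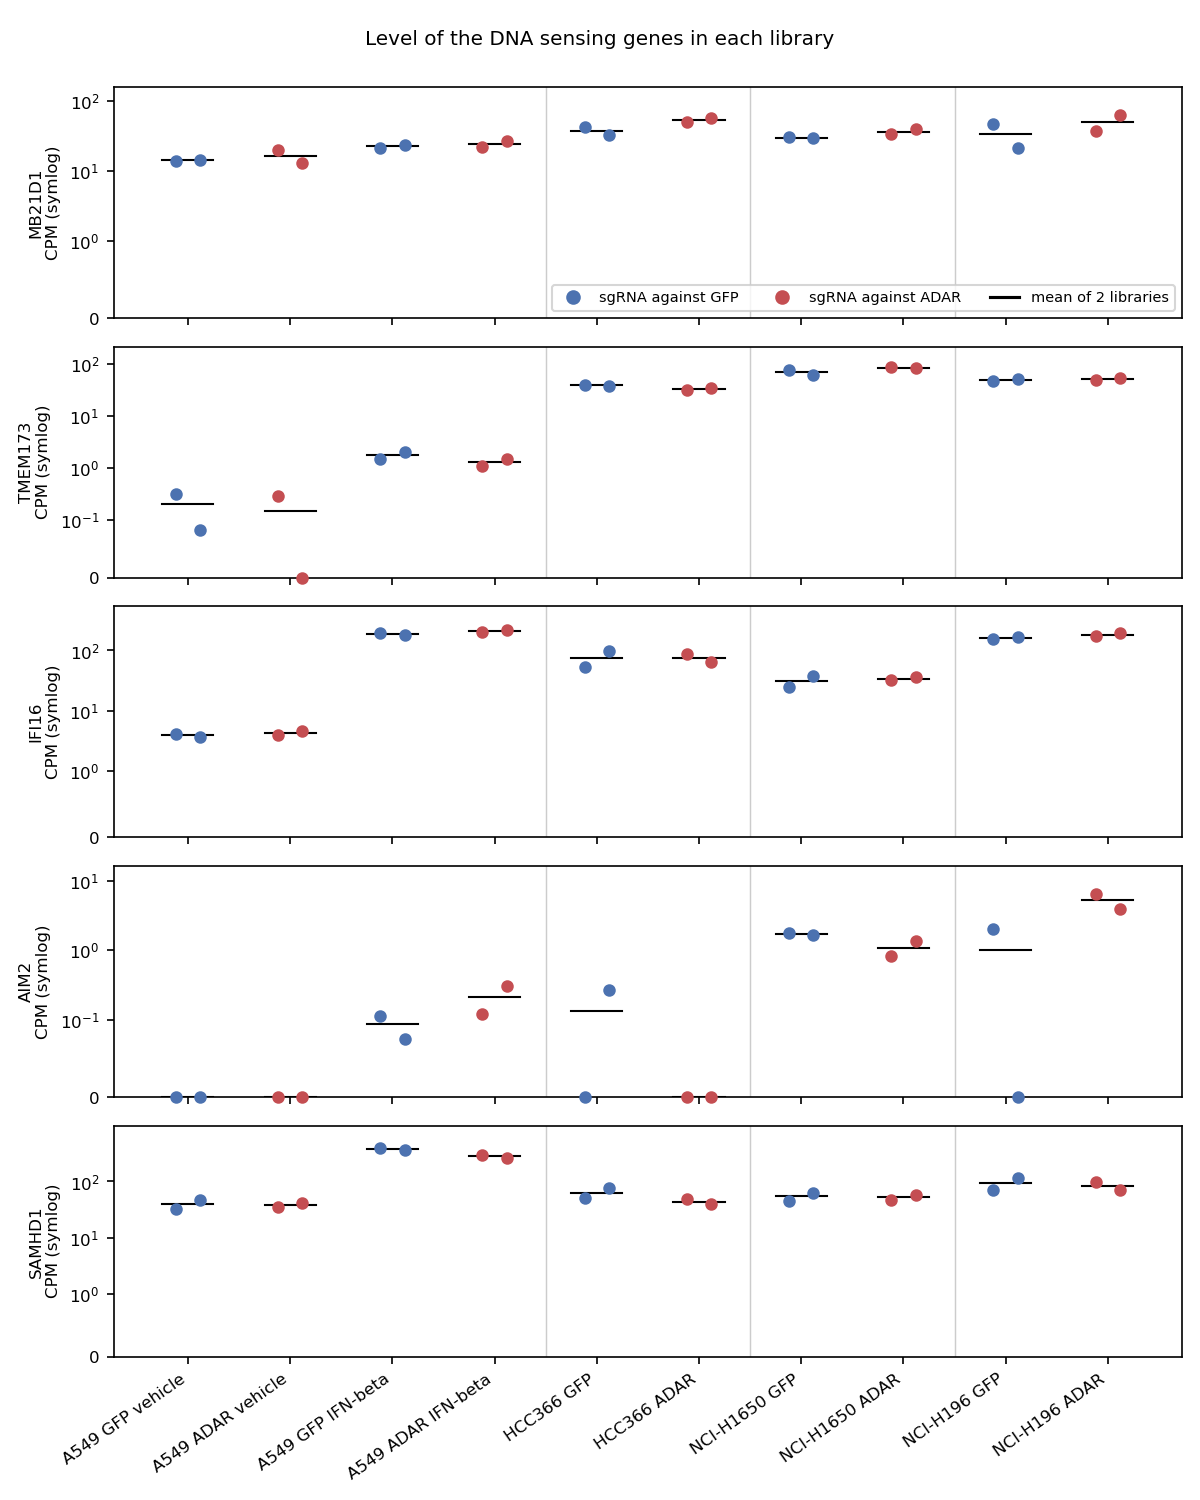
Level of 5 DNA sensing genes in each of the 20 libraries, in CPM scaled by TMM over all libraries, on an axis that is logarithmic above a small linear range at 0. Points are libraries (blue *GFP*, red *ADAR*) and bars are the means of 2 libraries. *TMEM173* in A549 stayed at or below 2.04 CPM, while every library of the other lines was at 32.6 CPM or above.

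Between the ADAR1-dependent lines and A549, all 4 members that could be tested passed the threshold upwards in each of the 3 comparisons. *TMEM173*, with 3 reads in A549, reached the filter on low counts only through the other lines. Its direction was therefore largely fixed by the filter. The test was edgeR's quasi-likelihood F-test with Benjamini-Hochberg adjustment over all genes and a threshold of 0.05. Most genes differ between cell lines: 64.9% of the genes tested passed in HCC366 against A549, 68.3% in NCI-H1650 against A549 and 70.5% in NCI-H196 against A549, so a passing member is not unusual there. The median log2 fold change of the 4 members, *TMEM173* included, was 2.94, 2.08 and 3.56, against 0.00, -0.01 and 0.02 over all genes tested. The 3 comparisons share the 2 A549 libraries.

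The fitted log2 fold change of *TMEM173* against A549 was 7.79 ± 0.38 (SE) for HCC366, 8.58 ± 0.32 for NCI-H1650 and 8.01 ± 0.36 for NCI-H196. Without A549 *GFP* sg1 these were 8.61, 9.41 and 8.79, and without A549 *GFP* sg2 they were 6.90, 7.70 and 7.08. For *IFI16* it was 4.47 ± 0.21, 3.05 ± 0.22 and 5.39 ± 0.20 in the same order, and the first was 3.83 without HCC366 *GFP* sg2. For *MB21D1* it was 1.42 ± 0.20, 1.10 ± 0.18 and 1.73 ± 0.18, and for *SAMHD1* 0.79 ± 0.16, 0.43 ± 0.15 and 0.89 ± 0.16. The difference in *SAMHD1* is the least firm of these. In NCI-H1650 it was lost with DESeq2 (adjusted p = 0.266), without A549 *GFP* sg1 (0.25, adjusted p = 0.232) and without NCI-H1650 *GFP* sg2 (0.17, adjusted p = 0.463). In HCC366 it was lost with DESeq2 (adjusted p = 0.0679) and without HCC366 *GFP* sg2 (0.38, adjusted p = 0.184). Without the deep NCI-H196 *GFP* sg1 library, both *MB21D1* (0.65, adjusted p = 0.802) and *SAMHD1* (1.57, adjusted p = 0.0516) lost the call in NCI-H196 against A549.

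Among the ADAR1-dependent lines, *IFI16* was the member that passed in every pair. Its log2 fold change was 1.42 ± 0.17 for HCC366 over NCI-H1650, -0.92 ± 0.16 for HCC366 over NCI-H196 and -2.34 ± 0.16 for NCI-H1650 over NCI-H196. Without HCC366 *GFP* sg2 the first was 0.75 and the second -1.53, both still past the test. *TMEM173* ran differently: it was highest in NCI-H1650, by -0.79 ± 0.17 for HCC366 over NCI-H1650 and by 0.57 ± 0.17 for NCI-H1650 over NCI-H196. In all, 3 of 4 members passed between HCC366 and NCI-H1650 (56.7% of all genes did), 1 of 4 between HCC366 and NCI-H196 (57.3%), and 4 of 4 between NCI-H1650 and NCI-H196 (61.7%). With DESeq2, *IFI16* was the only member to pass in each of these pairs. Its call between HCC366 and NCI-H196 was lost without NCI-H196 *GFP* sg1 (-1.06, adjusted p = 0.173). The *TMEM173* call between NCI-H1650 and NCI-H196 was lost without NCI-H196 *GFP* sg1 (0.36, adjusted p = 0.799) or NCI-H1650 *GFP* sg1 (0.39, adjusted p = 0.123). *SAMHD1* passed narrowly between HCC366 and NCI-H1650 (0.35 ± 0.16, adjusted p = 0.0481). It was lost without 6 of the 8 libraries, and without HCC366 *GFP* sg2 its value was -0.08. It held only without HCC366 *GFP* sg1 or NCI-H1650 *GFP* sg2. Between NCI-H1650 and NCI-H196, *MB21D1* (-0.63 ± 0.18, with overlap) turned to 0.44 without NCI-H196 *GFP* sg1. *SAMHD1* in that pair (-0.45 ± 0.16) was lost without NCI-H196 *GFP* sg1 (-1.15, adjusted p = 0.235) or NCI-H1650 *GFP* sg1 (-0.23, adjusted p = 0.35). The difference in *TMEM173* between HCC366 and NCI-H196 did not pass (-0.22, 95% interval -0.60 to 0.16).

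Per kb of exon, which allows only a rough comparison of genes within a line, the order of the members also differed between lines. The following values are mean CPM per kb of exon in the *GFP* libraries without IFN-β. Exon lengths are unions over all transcripts of a gene in the GENCODE annotation above and can exceed the length of the transcript expressed. The annotation used for counting is not given. Libraries overlapped between *SAMHD1* and *MB21D1* in A549 and between *MB21D1* and *IFI16* in NCI-H1650. In HCC366, *MB21D1* overlapped with both *IFI16* and *TMEM173*. The order within these pairs is therefore not firm. In A549, *SAMHD1* (3.7) and *MB21D1* (3.37) led, with *IFI16* at 0.737 and *TMEM173* at 0.0419. In HCC366 the order was *IFI16* (14.2), *MB21D1* (8.91), *TMEM173* (8.22) and *SAMHD1* (5.86). *TMEM173* led in NCI-H1650 at 14.6, ahead of *MB21D1* at 7.1 and *IFI16* at 5.92. *IFI16* led in NCI-H196 at 30.6, ahead of *TMEM173* at 10.3. *AIM2* did not exceed 0.268 in any of the 4.

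**Figure D2:**
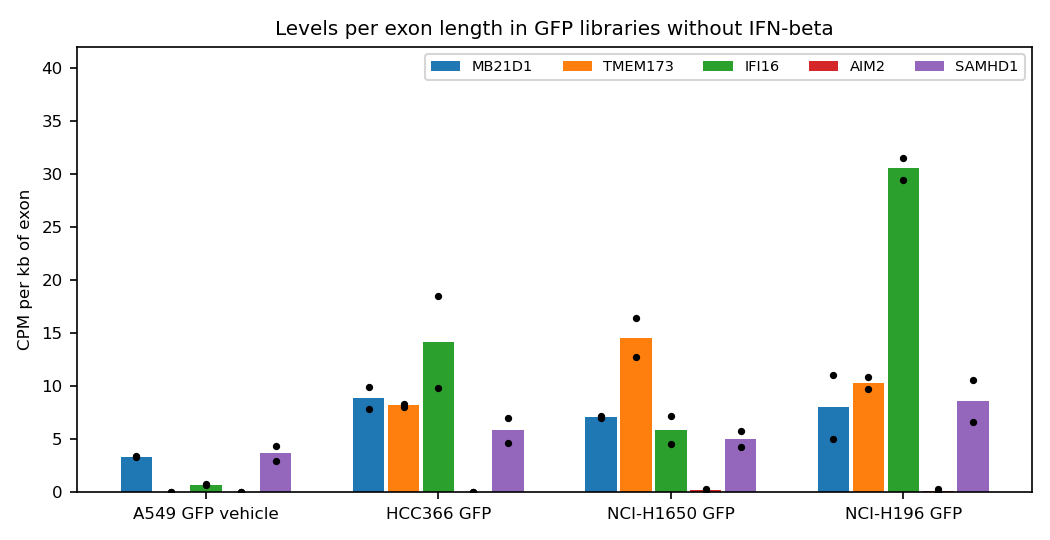
Mean CPM per kb of exon of 5 DNA sensing genes in the *GFP* libraries without IFN-β of the 4 lines. Bars start at 0 and show the mean of 2 libraries, and points are the libraries. *IFI16* in NCI-H196 reached 30.6, *TMEM173* in NCI-H1650 14.6, and *TMEM173* in A549 0.0419.

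The next question was whether *ADAR* KO changed these genes. Of the members tested by edgeR, 0 of 4 passed in HCC366, where 1.25% of all genes tested did, and 0 of 4 in NCI-H1650, where 8.6% did. In NCI-H196 1 of 5 passed, against 17.8% of all genes. In A549 0 of 4 passed with vehicle, against 0.123%, and 1 of 4 with IFN-β, against 17%. The 2 calls were a small increase of *IFI16* in NCI-H196 and a small decrease of *SAMHD1* in IFN-β-treated A549. At an unadjusted p under 0.05 the counts were 0, 1, 3, 0 and 1. Over all genes tested they were 2014 of 11135, 3149 of 14530, 4096 of 14094, 642 of 15449 and 4646 of 15449. DESeq2 called 0 members in the 4 others and *SAMHD1* in IFN-β-treated A549. Without HCC366 *ADAR* sg1, both *MB21D1* (0.70, adjusted p = 0.0135) and *SAMHD1* (-0.66, adjusted p = 0.0221) passed in HCC366. Levels are given from here on as CPM scaled by TMM within a line. In bulk RNA, fewer cells that express a gene and less RNA per cell cannot be told apart. Whether groups overlap is given per gene as a description, here and above. With 2 libraries a side, groups can lie apart without a difference. The share of all genes without overlap was not counted.

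*TMEM173* showed no change past the test in any line. In NCI-H1650 it was at 88 and 70 CPM in *GFP* and at 97.7 and 93.5 CPM in *ADAR* libraries. The groups did not overlap, and the log2 fold change was 0.27 ± 0.12 (adjusted p = 0.157). In HCC366 it was at 43.4 and 41.5 CPM in *GFP* and at 35 and 38.8 CPM in *ADAR* libraries, a difference of -0.20 (95% interval -0.98 to 0.58) in the opposite direction. In NCI-H196 the *ADAR* libraries at 62.9 and 62.5 CPM lay between the *GFP* libraries at 53.5 and 73.3 CPM. The value of 73.3 CPM rests on 5 reads, and that of 53.5 CPM, from 480 reads, was below both *ADAR* libraries. Vehicle-treated A549 had 2 and 1 reads in *GFP* and 2 and 0 reads in *ADAR* libraries, and a difference was not detectable at this depth (95% interval -3.04 to 2.53).

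*MB21D1* did not pass the test in any ADAR1-dependent line. In HCC366 and NCI-H1650, each *ADAR* library held more of it than either *GFP* library. It was at 44.9 and 35.2 CPM in *GFP* and at 54.2 and 64 CPM in *ADAR* libraries of HCC366 (log2 fold change 0.58 ± 0.35, adjusted p = 0.404). In NCI-H1650 it was at 33.7 and 33.2 CPM in *GFP* and at 37.3 and 43.4 CPM in *ADAR* libraries (0.27 ± 0.15, adjusted p = 0.296). In NCI-H196 the *GFP* libraries were at 53.2 and 29.3 CPM and the *ADAR* libraries at 46.7 and 71.4 CPM, which overlap (0.33 ± 0.14, adjusted p = 0.0814). The value of 29.3 CPM rests on 2 reads. In vehicle-treated A549 the *GFP* libraries at 11.5 and 11.4 CPM lay within the range of the *ADAR* libraries at 16.1 and 10.3 CPM.

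*IFI16* in NCI-H196 was at 179 and 235 CPM in *GFP* and at 220 and 218 CPM in *ADAR* libraries. Its log2 fold change of 0.27 ± 0.10 passed narrowly (adjusted p = 0.049), although the groups overlap. The value of 235 CPM rests on 16 reads. The call was lost with DESeq2 (0.17, adjusted p = 0.999), without the filter on low counts (adjusted p = 0.299) and in a fit of all 20 libraries (adjusted p = 0.862). Of the 4 fits that leave out 1 library, it held only without *GFP* sg2 (0.28, adjusted p = 0.0207). Without *GFP* sg1 the value was -0.09, without *ADAR* sg1 it was 0.21 (adjusted p = 0.843) and without *ADAR* sg2 it was 0.22 (adjusted p = 0.998). In HCC366 the *GFP* libraries at 56.5 and 105 CPM enclosed the *ADAR* libraries at 93.6 and 71.8 CPM. In NCI-H1650 the *GFP* libraries at 27.3 and 43.7 CPM enclosed the *ADAR* libraries at 35.5 and 40.6 CPM.

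*SAMHD1* was at 55 and 81.7 CPM in *GFP* and at 51.6 and 45.3 CPM in *ADAR* libraries of HCC366, a difference of -0.51 ± 0.36 without overlap that did not pass (adjusted p = 0.466). It was at 51.4 and 71.4 CPM in *GFP* and at 52.4 and 64.3 CPM in *ADAR* libraries of NCI-H1650, a difference of -0.07 (95% interval -0.35 to 0.20). In NCI-H196 it was at 82.2 and 161 CPM in *GFP*, the latter from 11 reads, and at 122 and 81.3 CPM in *ADAR* libraries (0.10, 95% interval -0.14 to 0.34). The groups overlapped in both of these lines.

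Among the fits of single lines, *AIM2* reached the filter on low counts only in NCI-H196, where it had 21 and 0 reads in *GFP* and 8 and 35 reads in *ADAR* libraries. These were 2.34 and 0 CPM against 8.12 and 4.39 CPM, without overlap. The 0 CPM comes from *GFP* sg2, where 1 read equals 15.95 CPM, so it cannot show a level below that of the *ADAR* libraries. The lack of overlap thus rests on *GFP* sg1 alone. The log2 fold change was 1.05 ± 0.43 (adjusted p = 0.0701), and the ratio of pooled levels was 2.07 (95% counting interval 1.2 to 3.66). In NCI-H1650 the same ratio was 0.612 (0.266 to 1.36), from 12 reads in *ADAR* and 17 in *GFP* libraries.

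**Figure D3:**
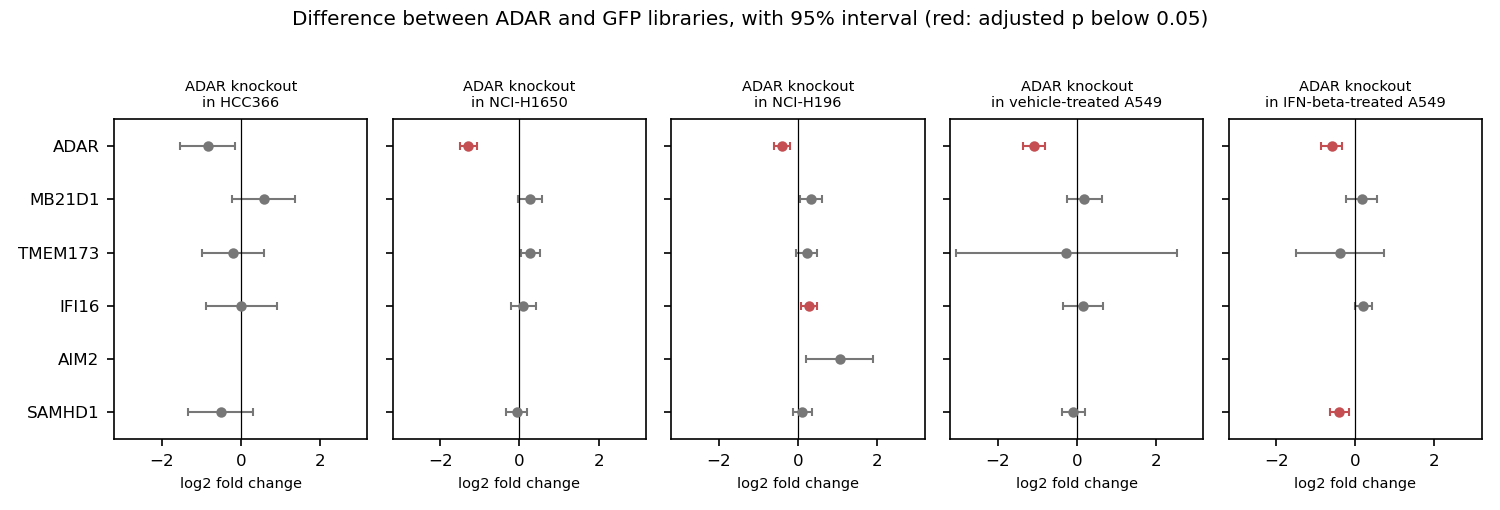
Log2 fold change between *ADAR* and *GFP* libraries for *ADAR* and 5 DNA sensing genes in 5 settings, from edgeR, with 95% intervals. Red points passed an adjusted p of 0.05. Besides *ADAR*, only *IFI16* in NCI-H196 (0.27) and *SAMHD1* in IFN-β-treated A549 (-0.40) are red.

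Across the 3 ADAR1-dependent lines in 1 fit with the line as covariate, 0 of 5 members passed, against 5.3% of all genes tested, and DESeq2 called 0 as well. The log2 fold change was 0.34 ± 0.15 for *MB21D1* (unadjusted p = 0.0404, adjusted p = 0.187), the 1 member with an unadjusted p under 0.05. Of all genes tested, 3944 of 16538 had such a p. For *TMEM173* it was 0.07 (95% interval -0.22 to 0.37), for *IFI16* 0.07 (-0.28 to 0.42), for *SAMHD1* -0.21 (-0.57 to 0.16) and for *AIM2* 0.26 (-0.61 to 1.13). A test of the difference between the *ADAR* KO effect across these lines and that in vehicle-treated A549 called 0 of the members, where 0.953% of all genes passed. At an unadjusted p under 0.05 it gave 0 members and 2690 of all 19523 genes, and DESeq2 called 0 members. *AIM2*, at 0 reads in vehicle-treated A549, has no value in that test.

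The response to IFN-β was tested in A549. In *GFP* control A549, all 4 members tested rose, where 5.7% of all genes tested passed. In *ADAR* KO A549 all 4 rose as well, where 24.5% of all genes passed. Of these, *TMEM173* had at most 2 reads in each vehicle library and reached the filter on low counts only through the IFN-β libraries. A fall of this gene could hardly have been seen, so it adds little to the count. The median log2 fold change of the 4 members, *TMEM173* included, was 3.29 and 3.08, against 0.00 over all genes in each comparison.

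*IFI16* had the largest fitted change in both backgrounds. In *GFP* cells it was at 3.43 and 2.92 CPM with vehicle and at 164 and 146 CPM with IFN-β, a 49.8-fold increase (log2 fold change 5.64 ± 0.16, adjusted p = 6.97e-23). In *ADAR* KO cells it was at 3.17 and 3.76 CPM with vehicle and at 172 and 184 CPM with IFN-β, a 50.8-fold increase (5.67 ± 0.16). On the scale of all 20 libraries, treated A549 lay at 178 to 217 CPM, above the 24.4 to 167 CPM of the untreated *GFP* libraries of the ADAR1-dependent lines.

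*SAMHD1* was at 26.9 and 38 CPM with vehicle and at 324 and 302 CPM with IFN-β in *GFP* cells, a 9.44-fold increase (3.24 ± 0.13, adjusted p = 8.02e-19). In *ADAR* KO cells it was at 28.9 and 33.4 CPM with vehicle and at 254 and 221 CPM with IFN-β, a 7.6-fold increase (2.93 ± 0.13). Treated A549 held more *SAMHD1* than any other condition, in all 4 libraries. Within IFN-β-treated cells, *ADAR* KO libraries were below *GFP* libraries, by -0.40 ± 0.11 (adjusted p = 0.0152). This call was lost without *ADAR* sg2 with IFN-β (-0.30, adjusted p = 0.266) and in the fit of all 20 libraries (-0.44, adjusted p = 0.213), and held with DESeq2 (-0.39, adjusted p = 0.0226).

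*TMEM173* rose from 0.264 and 0.0664 CPM (2 and 1 reads) with vehicle to 1.22 and 1.68 CPM (13 and 27 reads) with IFN-β in *GFP* cells. The ratio of pooled levels was 11.3 (95% counting interval 3.59 to 57). In *ADAR* KO cells, it rose from 0.244 and 0 CPM (2 and 0 reads) to 0.946 and 1.25 CPM (9 and 24 reads), a ratio of 10.4 (2.65 to 89.1). The fitted log2 fold change was 3.34 ± 0.81 (adjusted p = 0.00723) and 3.22 ± 0.92 (adjusted p = 0.00961). DESeq2 gave no call in *GFP* cells (adjusted p = 0.0837) and no adjusted p in *ADAR* KO cells. In *GFP* cells the call was lost without vehicle sg2 (2.43, adjusted p = 0.341) or IFN-β sg2 (3.07, adjusted p = 0.0975), and in *ADAR* KO cells without vehicle sg2 (2.17, adjusted p = 0.196) or IFN-β sg2 (2.95, adjusted p = 0.118). It held without vehicle sg1, where the value was 4.26 in *GFP* cells and 6.84 in *ADAR* KO cells, the latter above the value of *IFI16*. Treated A549, at 1.11 to 2.04 CPM on the scale of all 20 libraries, stayed below every library of the ADAR1-dependent lines, of which the lowest was at 32.6 CPM.

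*MB21D1* rose least. It was at 11.5 and 11.4 CPM with vehicle and at 17.5 and 19.3 CPM with IFN-β in *GFP* cells, a 1.61-fold increase (0.69 ± 0.20, adjusted p = 0.0369). In *ADAR* KO cells it went from 16.1 and 10.3 to 18.6 and 22.2 CPM, a 1.57-fold increase (0.65 ± 0.20, adjusted p = 0.0175). The call in *GFP* cells was lost with DESeq2 (adjusted p = 0.0749) and without vehicle sg1 (adjusted p = 0.164), vehicle sg2 (adjusted p = 0.251) or IFN-β sg2 (adjusted p = 0.161). That in *ADAR* KO cells was lost without vehicle sg2 (0.36, adjusted p = 0.372) or IFN-β sg2 (0.50, adjusted p = 0.232), and both were lost in the fit of all 20 libraries (adjusted p = 0.135 and 0.0835).

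*AIM2*, with its motif match printed above, had 0 reads in the 4 vehicle libraries. With IFN-β it had 1 and 1 reads in *GFP* cells and 1 and 5 reads in *ADAR* KO cells. The first value is under the floor of 3 reads. For the second, the lower 95% counting limit of the ratio is 0.739, so a difference was not detectable at this depth. *AIM2* did not reach the filter in this fit and was not tested.

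**Figure D4:**
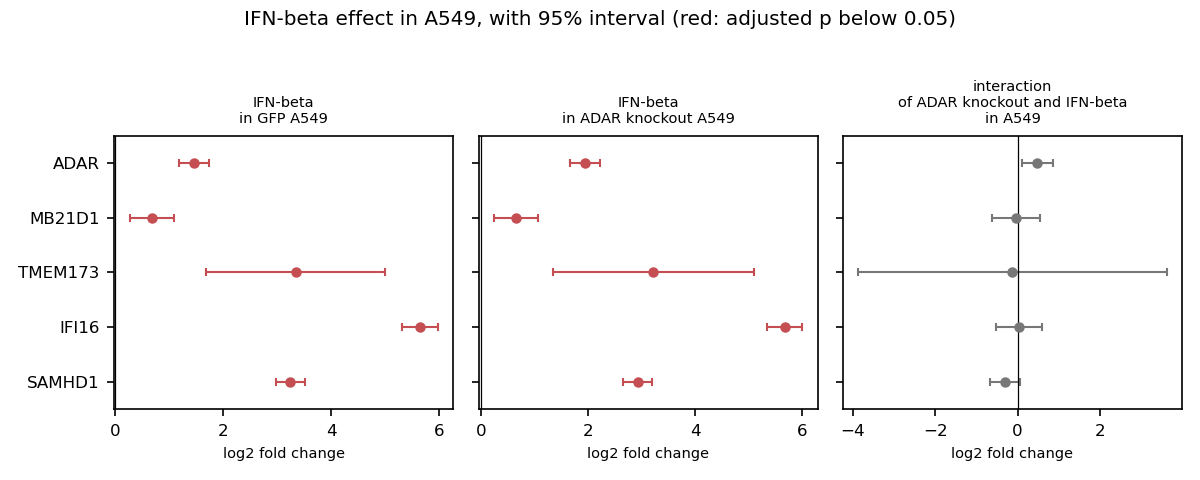
Log2 fold change of *ADAR* and 4 DNA sensing genes between IFN-β and vehicle in A549 with an sgRNA against *GFP* (left) or *ADAR* (middle), and the interaction (right), from edgeR with 95% intervals. Red points passed an adjusted p of 0.05. *IFI16* is farthest to the right at 5.64 and 5.67, and no interaction is red.

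Whether *ADAR* KO altered the response to IFN-β was tested by the interaction term, which 5.05% of all genes passed. Of the 4 members, 0 passed, with 0 at an unadjusted p under 0.05 and 0 by DESeq2. Over all genes, 2881 of 15449 had an unadjusted p under 0.05. The interaction was -0.31 for *SAMHD1* (95% interval -0.68 to 0.06), 0.03 for *IFI16* (-0.53 to 0.59), -0.04 for *MB21D1* (-0.62 to 0.55) and -0.13 for *TMEM173* (-3.87 to 3.62). The interval of *TMEM173* is too wide to show a difference of the size of its own response. The A549 comparisons of *ADAR* KO and of IFN-β share libraries with each other.

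The partners that act with cGAS and STING were taken from a list of 22 genes. In *GFP* A549, IFN-β raised 2 of the 22 tested and lowered 0, against 5.7% of all genes. These were *TRIM14* (2.59 ± 0.11), which stabilizes cGAS, and *TRIM56* (1.46 ± 0.11), a ubiquitin ligase reported to act on STING and cGAS. The median of the list was 0.15, against 0.00 over all genes. *ADAR* KO raised 1 of 22 and lowered 0 across the 3 ADAR1-dependent lines, against 5.3% of all genes. That gene was *IKBKE*, which encodes the kinase IKKε, at 0.87 ± 0.15 (adjusted p = 0.00225). In NCI-H1650 its mean was 14.6 ± 0.314 CPM (SD, n = 2) in *GFP* and 30 ± 1.97 CPM in *ADAR* libraries. In NCI-H196 its mean was 14.2 ± 0.587 CPM in *GFP* and 31.5 ± 2.84 CPM in *ADAR* libraries. Its call in NCI-H1650 alone held in 9 of 9 alternatives and that in NCI-H196 alone in 6 of 9. In HCC366, with a higher basal level, its mean was 41.5 ± 5.98 CPM in *GFP* and 61.4 ± 10.1 CPM in *ADAR* libraries. In that line alone, 0 genes of the list passed. In A549 it was at 13.5 ± 2.56 CPM in vehicle-treated *GFP* cells, 12.2 ± 0.151 in vehicle-treated KO cells, 19.6 ± 3.76 in IFN-β-treated *GFP* cells and 47.5 ± 8.77 in IFN-β-treated KO cells. *IKBKE* passed the interaction test (1.39 ± 0.26, adjusted p = 0.000955). The calls across the ADAR1-dependent lines and of the interaction held in all 17 and all 14 alternatives. The difference of its KO effect from that in vehicle-treated A549 also passed (1.04 ± 0.25, adjusted p = 0.0365), but held in only 6 of 24 alternatives. Of the fits that leave out 1 library, it held without A549 *GFP* IFN-β sg1 or sg2, HCC366 *ADAR* sg1 or sg2 or NCI-H196 *GFP* sg2 and was lost without any other, with values from 0.87 to 1.22 where it was lost.

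Of 16 other genes named as DNA sensors, 12 were tested in *GFP* A549 with IFN-β, of which 0 rose and 1 fell, against 5.7% of all genes. This was *PRKDC*, the catalytic subunit of DNA-PK, by -0.32 ± 0.09, a call that held in 6 of 14 alternatives and was lost without *GFP* vehicle sg1 (-0.38, adjusted p = 0.098) or sg2 (-0.28, adjusted p = 0.373), *GFP* IFN-β sg1 (adjusted p = 0.0576) or *ADAR* vehicle sg1 or sg2 (adjusted p = 0.0699 and 0.0713). Of the 13 tested across the ADAR1-dependent lines, 0 passed under *ADAR* KO by edgeR, with 4 at an unadjusted p under 0.05 and 2 lower by DESeq2. Over all genes in that fit, 3944 of 16538 had an unadjusted p under 0.05. In NCI-H196 alone, 3 of 13 fell by edgeR and 0 by DESeq2, where 17.8% of all genes passed by edgeR. Among them was *HMGB1* (-0.51 ± 0.10), a DNA-binding chromatin protein, whose value without *GFP* sg1 was -0.06. At baseline, 10 of 12 were lower in HCC366 than in A549 and 1 was higher, with a median log2 fold change of -0.89. Of all genes, 64.9% passed in that comparison. Against A549, 9 of 12 were lower and 0 higher in NCI-H1650 (median -0.56, 68.3% of all genes passing). In NCI-H196, 8 of 12 were lower and 0 higher (median -0.70, 70.5% of all genes passing). DESeq2 called 6 lower and 1 higher in HCC366, 3 and 0 in NCI-H1650, and 7 and 1 in NCI-H196.

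Around *AIM2*, the inflammasome list held 6 genes, of which 3 were tested in A549. IFN-β raised *CASP1*, the protease of the inflammasome, from 0.0992 ± 0.0464 to 8.86 ± 0.0646 CPM in *GFP* cells (6.49 ± 0.53), and *GSDMD*, the pore-forming protein it cleaves, by 2.48 ± 0.20. *CASP1* had 2 reads over the vehicle-treated *GFP* libraries and reached the filter on low counts only through the IFN-β libraries. The adaptor gene *PYCARD*, which encodes ASC, had 2 reads over the 2 vehicle-treated and 2 over the 2 IFN-β-treated *GFP* libraries. *IL1B*, the cytokine that caspase-1 matures, rose with *ADAR* KO across the ADAR1-dependent lines (1.46 ± 0.30, adjusted p = 0.00954), in all 17 alternatives as well. Its HCC366 mean was 3.98 ± 1.25 CPM in *GFP* and 34.7 ± 2.1 CPM in *ADAR* libraries, and its NCI-H196 mean was 147 ± 22 and 296 ± 22.1 CPM. In NCI-H1650 it was near the floor at 0.671 ± 0.611 and 0.599 ± 0.0591 CPM. The 6 leukocyte markers moved with it. Their sum lay between 9.29 and 13.9 CPM in *GFP* and between 35.9 and 49 CPM in *ADAR* libraries of HCC366, and between 0 and 5.05 and between 9.63 and 15.4 CPM in those of NCI-H196. Their part in the result was not tested.

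A list of 8 genes for nucleic acid clearance and related Aicardi-Goutières genes includes the targeted gene *ADAR* and *IFIH1*, which encodes the RNA sensor MDA5. IFN-β raised these 2 of 8 in *GFP* A549, *IFIH1* by 7.64 ± 0.19 and *ADAR* by 1.47 ± 0.13, and lowered 0, against 5.7% of all genes. *ADAR* KO across the ADAR1-dependent lines lowered 1 of 8, *ADAR* itself, and raised 0, against 5.3% of all genes. Next to *SAMHD1*, a list of 10 genes of deoxynucleotide supply had 0 of 10 changed by IFN-β in *GFP* A549 by edgeR, with 1 at an unadjusted p under 0.05 and 0 by DESeq2. Over all genes in that comparison, 5.7% passed and 2343 of 15449 had an unadjusted p under 0.05. *ADAR* KO lowered 1 of the 10 across the ADAR1-dependent lines, again against 5.3% of all genes. This was *RRM2*, the small subunit of ribonucleotide reductase, at -0.60 ± 0.14 (adjusted p = 0.0234). The call was lost without HCC366 *GFP* sg1 (adjusted p = 0.066), NCI-H196 *GFP* sg1 (-0.49, adjusted p = 0.0722), NCI-H196 *ADAR* sg1 (adjusted p = 0.0605) or NCI-H196 *ADAR* sg2 (adjusted p = 0.0603). Of 11 interferon and interferon-stimulated genes kept as a reference, IFN-β raised 9 of the 10 tested in *GFP* A549, against 5.7% of all genes, with *MX1* at 10.85 ± 0.19. *MX1*, with 11 reads in vehicle-treated *GFP* A549, was among the genes that reached the filter on low counts only through the IFN-β libraries. *ADAR* KO raised 5 of 11 across the ADAR1-dependent lines, against 5.3% of all genes, with *IFNB1* at 2.92 ± 0.31. DESeq2 called 3 of them higher. *IFNB1* had 2 reads in *GFP* and 9 in *ADAR* libraries of HCC366, 14 and 118 in NCI-H1650, and 2 and 24 in NCI-H196. It reached the filter on low counts in the fit of these lines only through *ADAR* libraries.

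**Figure D5:**
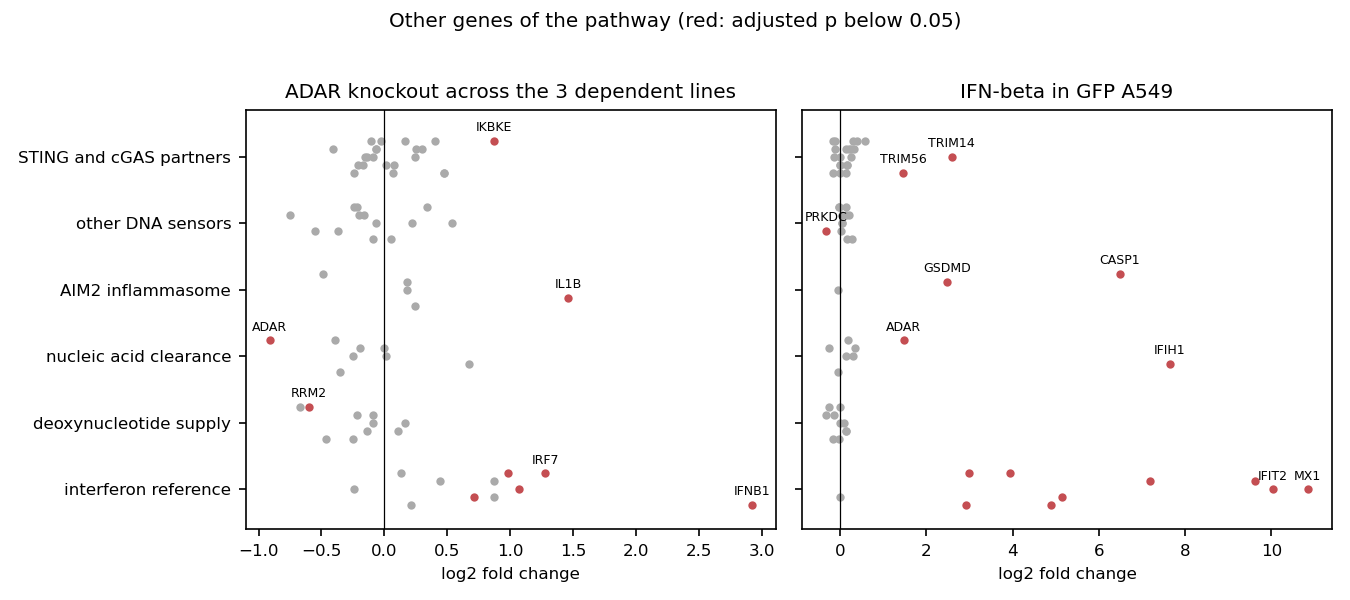
Log2 fold change of the genes of 6 pathway lists under *ADAR* KO across the 3 ADAR1-dependent lines (left) and under IFN-β in *GFP* A549 (right), 1 point per gene. Red points passed an adjusted p of 0.05 in edgeR, and up to 2 genes per direction and list are named. *IKBKE* (0.87) is the only red point of the cGAS and STING partners on the left, and *TRIM14* (2.59) and *TRIM56* (1.46) are those on the right.

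Ordered by mean CPM over the 10 conditions, the members fell into 2 patterns. For *TMEM173* and *MB21D1*, the means of all 4 A549 conditions were below those of all 6 conditions of the ADAR1-dependent lines, whether or not IFN-β was given. By library, *MB21D1* overlapped, since NCI-H196 *GFP* spanned 20.9 to 46.3 CPM and IFN-β-treated A549 21.2 to 26.2 CPM. For *SAMHD1*, the 2 IFN-β-treated A549 conditions were highest, at 379 ± 16.3 and 280 ± 26.1 CPM, and the 8 others lay between 38.3 and 93.3 CPM with each neighbor in that order overlapping the next. *IFI16* combined both, with IFN-β-treated A549 and NCI-H196 at the top and vehicle-treated A549 at the bottom. The 2 vehicle-treated A549 conditions overlapped for every member with reads there.

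As a description, mean log2 CPM over the 10 conditions gave Pearson correlations of 0.87 between *TMEM173* and *MB21D1*, 0.72 between *IFI16* and *SAMHD1*, and -0.18 between *TMEM173* and *SAMHD1*. The 10 conditions come from 4 lines and share the line's whole expression program, so these values carry no test. Among 19281 genes matched to the annotation, those most like *IFI16* were *TRIM38* (r = 0.992), *LGALS3BP* (0.980) and *TAP2* (0.978). Those most like *SAMHD1* were *ODF3B* (0.951), *IFI35* (0.949) and *PSMB9* (0.933). For *TMEM173* they were *ZNF841* (0.993), *MAP3K5* (0.988) and *PLXNA2* (0.987), and for *MB21D1* they were *SLC26A6* (0.984) and *SPRY4* (0.979). *AIM2* counts were too sparse for such a ranking to be given.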

How the data were processed

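RNA was depleted of ribosomal RNA, made into directional libraries and sequenced as paired ends. Per the labels and the study's methods, the authors used STAR for alignment (hg19) and HTSeq for counting, and the deposited values are raw counts per gene without normalization. The HTSeq mode, strand setting and annotation release are not given in the sources used here. All 20 libraries were used, 2 for each of 10 conditions, grouped by the labelled line, target and treatment. HTSeq's summary rows were left out of library sizes. In share of the reads on genes plus the ambiguous class, the ambiguous class took 10.3% to 14%. By Ensembl identifier, 55727 of 58233 identifiers were matched to the annotation, which carry 97.4% of the counts. Gene reads per library were 62679 to 19520189. Intervals and floors from counts cover counting error only. No files held identical values, and the 2 libraries of each condition differed by more than sampling noise.

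The tests ran in edgeR 4.0.16 under R 4.3.3, with limma 3.58.1 loaded: TMM scaling, filterByExpr by condition (minimum count 10), glmQLFit and glmQLFTest, Benjamini-Hochberg adjustment over all genes tested and a threshold of 0.05. Log2 fold changes used a prior count of 0.125. HCC366, NCI-H1650 and NCI-H196 had a fit each for *ADAR* KO. The 8 A549 libraries shared a fit for *ADAR* KO, IFN-β and their interaction. The 12 libraries of the ADAR1-dependent lines were fitted with the line as covariate, all 20 libraries gave the difference to vehicle-treated A549, and the 8 *GFP* libraries without IFN-β gave the basal levels. Levels are CPM scaled by TMM within a line or, where stated, over all 20 libraries, and per kb of the union of exons. The tests of *ADAR* KO in vehicle-treated A549 and in NCI-H1650 were run on simulated counts with known changes and the same spread for every gene. The other fits, that of NCI-H196 with its shallow library included, were not simulated. Alternatives were DESeq2 1.42.0, its size factors in edgeR, no filter, each library left out, replicate blocks and 1 fit of all 20 libraries. A crossed block in HCC366 was added after seeing the data.

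The members and all gene lists were chosen with earlier results of these data known. Named are the 6 members, *ADAR*, up to 2 genes per direction from each list and comparison with the largest log2 fold change past the threshold, and, of the 3 genes most correlated with each member, those given in the text. *PYCARD* was named after its values were seen. A few items that these rules would name are not reported here.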

Additional observations from a re-analysis of the deposited data

Results flagged for a closer look

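The log2 fold change of *TMEM173* under *ADAR* KO was 0.27 in NCI-H1650, where both *ADAR* libraries were above both *GFP* libraries, and -0.20 in HCC366, where both were below. Neither passed the test, and the difference between the 2 lines was not tested. The share of all genes whose libraries lie apart in this way was not counted.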

How the results depend on the processing

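Of the log2 fold changes of single members, 771 kept direction and side of the threshold under an alternative, 56 lost a call, 3 gained one and 54 changed sign. The call of *IFI16* and of *SAMHD1* under IFN-β held in every alternative. The counts of members called that moved by over 1.5 times were these. For *ADAR* KO in NCI-H196 the count of 1 became 0 with all 20 libraries in 1 fit, with DESeq2, without the filter and with the replicate block, and for *ADAR* KO in IFN-β-treated A549 the count of 1 became 0 with all 20 libraries. For IFN-β in *GFP* A549 the count of 4 became 2 with DESeq2. Among basal levels, DESeq2 gave 1 for HCC366 against NCI-H1650 (from 3) and 1 for NCI-H1650 against NCI-H196 (from 4). For HCC366 against NCI-H196 the count of 1 became 2 with all 20 libraries, without the filter and with the block. Smaller moves were 3 in place of 4 for IFN-β in *GFP* and in *ADAR* KO A549 with all 20 libraries, for IFN-β in *ADAR* KO A549 with DESeq2 and for basal HCC366 and NCI-H1650 against A549 with DESeq2, and 5 in place of 4 for basal NCI-H196 against A549 with all 20 libraries or without the filter. The block and the DESeq2 size factors gave 2 in place of 3 for basal HCC366 against NCI-H1650, and the size factors and the fit of all 20 libraries gave 3 in place of 4 for NCI-H1650 against NCI-H196. The cause was not tested.

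Signs changed for *IFI16* under *ADAR* KO in HCC366 (-0.08 with all 20 libraries, -0.02 with DESeq2, -0.06 without the filter) and for *SAMHD1* under *ADAR* KO in NCI-H196 (-0.06 with DESeq2). They also changed for the interaction of *IFI16* (0.00 with all 20 libraries), for *AIM2* across the ADAR1-dependent lines (-0.98 with all 20 libraries) and for basal *SAMHD1* of HCC366 against NCI-H196 (0.06 with DESeq2 size factors).

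Between targets, same-numbered sgRNAs share only a number: their deviations correlated at -0.239 in HCC366 and between -0.0805 and -0.014 elsewhere. Treated and vehicle A549 cells of a target carry the same sgRNA, and their deviations correlated at -0.0726 and -0.000596. With the replicate block, the members called by IFN-β fell from 4 to 2 in *GFP* and from 4 to 2 in *ADAR* KO A549. By construction, that block gives the IFN-β estimate at sg1, with an sg2 offset for each treatment that both targets share. With a block by sgRNA, which pairs vehicle and IFN-β libraries, both stayed at 4. The block turned the interaction of *TMEM173* to 0.15. All genes called with the block were 300 in HCC366 (139 without it), 115 in NCI-H196 (2513), 11 in vehicle-treated A549 (19), 489 and 2033 for IFN-β (880 and 3788), 479 for the interaction (780), 362 across the ADAR1-dependent lines (876) and 87 for the difference (186). The crossed pairing in HCC366, chosen after seeing the data, gave 960.

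With each library left out in turn, the count of members called ranged from 0 to 2 for *ADAR* KO in HCC366, from 0 to 1 in NCI-H196 and from 0 to 1 in IFN-β-treated A549, from 2 to 4 for IFN-β in *GFP* and in *ADAR* KO A549, and from 0 to 2, 1 to 4 and 2 to 5 for basal HCC366 against NCI-H196, NCI-H1650 against NCI-H196 and NCI-H196 against A549. A lone library left in a group was assumed to vary like the others of its fit. Log2 fold changes that changed sign ranged as follows under *ADAR* KO. In HCC366 *IFI16* ranged from -0.38 to 0.55. In NCI-H1650 *IFI16* ranged from -0.20 to 0.44 and *SAMHD1* from -0.29 to 0.15. In NCI-H196 *TMEM173* ranged from -0.22 to 0.22, *MB21D1* from -0.14 to 1.19, *IFI16* from -0.09 to 0.28 and *SAMHD1* from -0.85 to 0.42. In vehicle-treated A549 *TMEM173* ranged from -3.87 to 0.80, *MB21D1* from -0.15 to 0.49 and *SAMHD1* from -0.29 to 0.22. For the interaction *TMEM173* ranged from -1.18 to 3.49, *MB21D1* from -0.33 to 0.32 and *IFI16* from -0.07 to 0.17. Across the ADAR1-dependent lines *TMEM173* ranged from -0.02 to 0.14, *IFI16* from -0.03 to 0.21 and *AIM2* from -0.62 to 0.49. For the difference from vehicle-treated A549 *TMEM173* ranged from -0.70 to 3.32, *MB21D1* from -0.10 to 0.55, *IFI16* from -0.21 to 0.12 and *SAMHD1* from -0.41 to 0.13. Among basal levels, *SAMHD1* ranged from -0.08 to 0.58 for HCC366 against NCI-H1650, *MB21D1* from -0.38 to 0.77 and *SAMHD1* from -0.79 to 0.14 for HCC366 against NCI-H196, and *MB21D1* from -0.64 to 0.44 for NCI-H1650 against NCI-H196.

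Counts of all genes called also moved by over 1.5 times with all 20 libraries in 1 fit (HCC366 3701, NCI-H1650 159, NCI-H196 98, vehicle-treated A549 5, IFN-β-treated A549 1087 from 2622, IFN-β 531 and 2067, interaction 164, ADAR1-dependent lines 3148), with DESeq2 (HCC366 308, NCI-H1650 389 from 1250, NCI-H196 11, vehicle-treated A549 4, the 6 basal comparisons between 3757 and 5523 from between 9050 and 11252) and without the filter (HCC366 903, NCI-H196 1552, vehicle-treated A549 30, ADAR1-dependent lines 1829, difference 111). Depth limits *TMEM173* in A549 and *AIM2* everywhere, which rest on few reads, and every value from NCI-H196 *GFP* sg2.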
